A study of Mus musculus with 6 samples.

Results

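Cytochrome P450 enzymes of families 1 to 3 were measured in the livers of SRC-2 null and wild-type mice with short oligonucleotide arrays. The members were all probe sets of the deposited table whose platform annotation gave exactly 1 gene symbol starting with Cyp1, Cyp2 or Cyp3 followed by a letter and a number. Cyp2c70 was left out. The rule found 51 of 45101 probe sets, which stand for 42 of the 18193 genes named by such sets. Of these, 34 genes, with 40 of the probe sets, were bright enough to be tested.

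Both groups were female mice of a C57 background that were ovariectomized at 6 weeks of age and killed 2 weeks later by cervical dislocation under Avertin anesthesia. One group was wild-type and the other lacked SRC-2, the nuclear receptor coactivator encoded by Ncoa2, and the labels do not describe the allele. Each genotype had 3 arrays of total RNA from flash-frozen liver. Nothing in the labels says whether replicates are separate animals, so a p-value here reflects the spread among these arrays alone, which may be technical. The tissue was whole liver, in which fewer cells of a type and less RNA per cell cannot be told apart.

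Cytochrome P450s are heme enzymes of the endoplasmic reticulum that insert an oxygen atom into their substrates with electrons from P450 oxidoreductase. Families 1 to 3 hold most of the enzymes that oxidise drugs, toxins, steroids and polyunsaturated fatty acids, and the liver is their main site. Their genes lie in clusters of close relatives. Many are controlled by receptors that work with coactivators, such as the aryl hydrocarbon receptor (AhR), CAR and PXR, and some are set by the sex-specific rhythm of growth hormone. In hepatocytes they are also zoned along the lobule, most of them near the central vein.

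The targeted gene was lower in the SRC-2 null arrays in 2 of its 4 probe sets. The brightest, 1435233_at, read 7.74, 7.92 and 8.53 in wild-type and 5.60, 5.44 and 5.86 in null liver (log2 values, limma adjusted p = 0.000353). Array medians lay between 4.17 and 4.24, and no array was a copy of another. Both replicate 3 arrays deviated together from their group means over the tested genes (correlation 0.516), and against those of replicates 1 and 2 of the other genotype (-0.344 to -0.266). The deviations within a group cancel out, so the negative values follow in sum from the positive one and are no separate observation. With 3 arrays a group, precision is limited.

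Between genotypes, 1 of the 34 tested P450 genes was higher in SRC-2 null liver and 6 were lower, while 27 did not pass the test. Cyp2d9, a male-predominant testosterone hydroxylase, rose 2.57-fold. Cyp2g1, a P450 best known from the olfactory mucosa, fell 2.63-fold, and Cyp1a2, which oxidises caffeine and aromatic amines, fell 1.66-fold. Smaller falls were those of Cyp3a44 (1.47-fold), Cyp2j9 (1.40-fold), Cyp2c68 (1.36-fold) and Cyp2c37 (1.35-fold). The 7 calls are 20.6% of the tested P450 genes, beside 4.67% of all 11894 genes tested (1.55% higher and 3.13% lower). The median log2 fold change of the 34 genes was -0.10, against 0.00 over all genes tested, and 24 of the 34 had a value below 0 (49.4% of all genes).

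A gene was called at a limma adjusted p under 0.05, from its brightest probe set. Fold changes are null against wild-type. The call of Cyp2d9 and that of Cyp2g1 held without each array in turn. The number of P450 genes called lower was 6 in all, and it was 2 without wild-type replicate 1, 2 without wild-type replicate 2, 2 without null replicate 1 and 1 without null replicate 2. With replicates 1 and 2 only, Cyp2d9, Cyp2g1 and Cyp1a2 stayed called and the 4 smaller falls did not. Within replicate 3 alone, the null-minus-wild-type difference on the log2 scale was 1.40 for Cyp2d9, -1.33 for Cyp2g1 and -0.59 for Cyp1a2. It was -0.56 for Cyp2j9, -0.48 for Cyp3a44, -0.44 for Cyp2c68 and -0.38 for Cyp2c37. The groups of these genes did not overlap, so the directions within replicate 3 were fixed and only the sizes are informative.

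Separate groups were counted over all 34 tested genes, the called ones included. In 13 genes (38.2%) the 3 null arrays all lay below the 3 wild-type arrays, beside 12.5% of all genes tested, and 6 of these were the genes called lower. In 4 genes (11.8%), Cyp2d9 among them, they all lay above, beside 10.8% of all genes. The remaining 17 genes had overlapping groups.

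**Figure D1:**
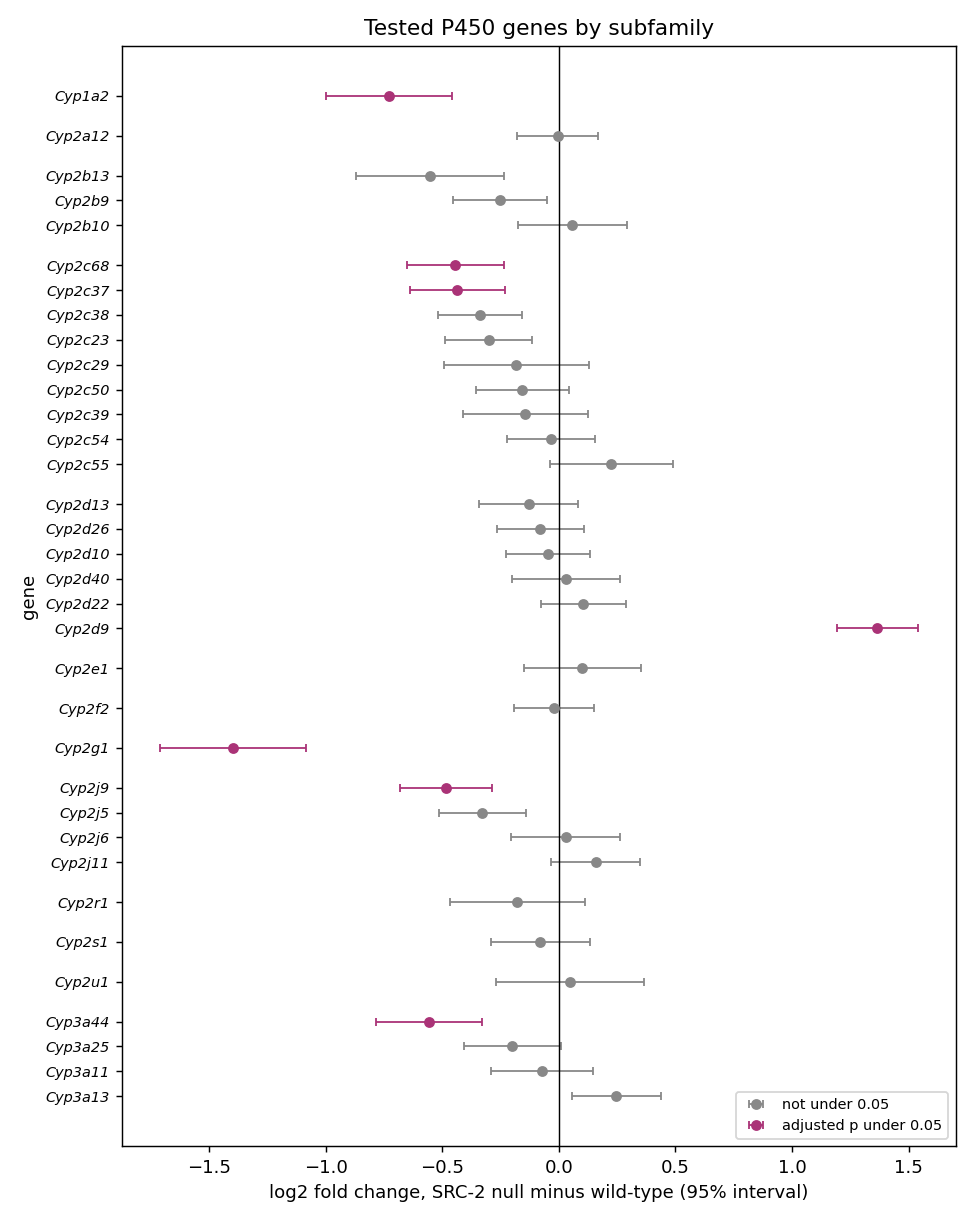
Log2 fold change (SRC-2 null minus wild-type) of the 34 tested P450 genes, 3 arrays per genotype, grouped by subfamily. Points are estimates from limma, bars are 95% intervals, and the 7 coloured genes had an adjusted p under 0.05; Cyp2d9 stands at 1.36 and Cyp2g1 at -1.40, and the other 32 lie between -0.73 and 0.25.

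Cyp2d9 was the P450 gene that rose, and its upstream DNA is shown beside that of Cyp2d10, its neighbour in the gene cluster, because the pair is similar in sequence and differed in fold change. The sequences are the 250 bases before the start of each gene from RefSeq (mouse build GRCm38.p6), for Cyp2d9 chr15:82452127-82452376 on the plus strand and for Cyp2d10 chr15:82407195-82407444 on the minus strand, written 5′ to 3′.
Cyp2d9: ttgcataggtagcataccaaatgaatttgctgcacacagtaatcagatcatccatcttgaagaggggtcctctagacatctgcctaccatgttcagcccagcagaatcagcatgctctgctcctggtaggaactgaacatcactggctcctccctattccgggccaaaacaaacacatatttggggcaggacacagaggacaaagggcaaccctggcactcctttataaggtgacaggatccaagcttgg
Cyp2d10: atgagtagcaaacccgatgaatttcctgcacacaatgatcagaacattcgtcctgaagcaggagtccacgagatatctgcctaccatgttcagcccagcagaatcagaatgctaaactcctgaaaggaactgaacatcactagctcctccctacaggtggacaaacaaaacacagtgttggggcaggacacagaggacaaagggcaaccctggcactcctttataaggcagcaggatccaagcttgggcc
Over a global alignment they share 212 of 256 columns, an identity of 82.8%. Neither holds a match to the 4 motifs searched.

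Cyp2d9 is read by 1419349_a_at, with 10.58, 10.56 and 10.58 in wild-type liver and 11.91, 11.91 and 11.98 in null liver (log2 values). The groups were far apart, and the arrays of each lay close together. The mean went from 10.57 ± 0.01 to 11.94 ± 0.04 (SD, n = 3), a log2 fold change of 1.36 with an SE of 0.08 (limma adjusted p = 3.92e-05). The ending _a_at marks a set whose probes are shared by transcripts of 1 gene.

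None of the other 5 tested Cyp2d genes passed the test. Cyp2d10 had a log2 fold change of -0.05 (95% interval -0.23 to 0.13) and read 12.50, 12.44 and 12.56 in wild-type and 12.43, 12.45 and 12.49 in null liver. Cyp2d26, Cyp2d40 and Cyp2d13, a transcribed pseudogene in RefSeq, had values of -0.08, 0.03 and -0.13, with overlapping groups. Cyp2d22 has a pair of probe sets that both lay higher on all 3 null arrays, 1419039_at by 0.11 and 1419040_at by 0.25, and neither was called (adjusted p = 0.658 and 0.222 among probe sets). Whether the change of Cyp2d9 differs from that of its relatives was not tested.

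Cyp2g1 had the largest fall among the tested P450 genes. It lies between Cyp2b19 and Cyp2a5 on chromosome 7 in the RefSeq gene order. Wild-type arrays gave 6.27, 6.61 and 6.65 and null arrays 4.96, 5.06 and 5.32 on 1449565_at. The lowest wild-type array stood well above the highest null array. The mean fell from 6.51 ± 0.21 to 5.11 ± 0.19 (SD, n = 3), with a log2 fold change of -1.40, an SE of 0.14 and a limma adjusted p of 0.000823.

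**Figure D2:**
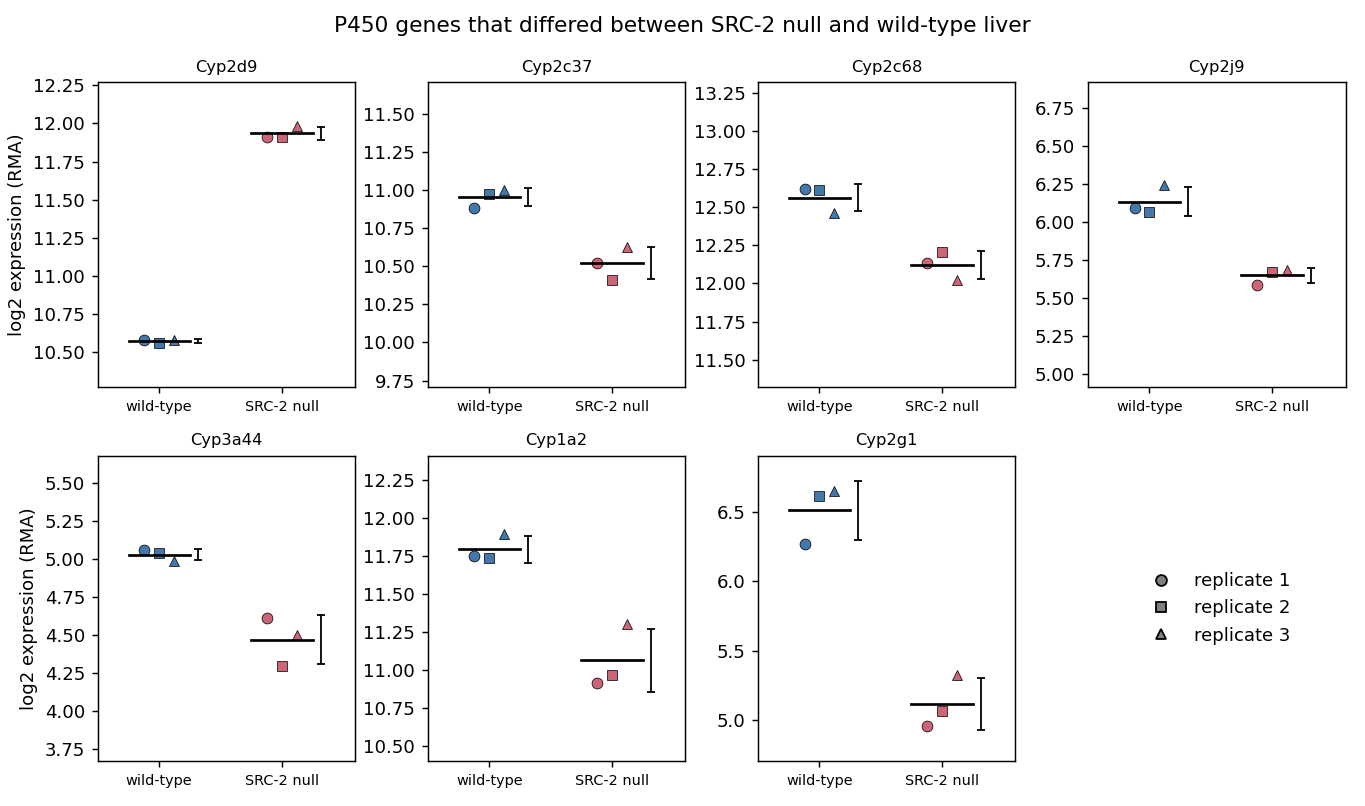
Log2 expression on each array for the 7 P450 genes with an adjusted p under 0.05, in order of fold change, each panel on its own range. Symbols are replicates, horizontal lines group means and vertical bars 1 SD; in every panel the 3 null arrays lie on one side of the 3 wild-type arrays, above them for Cyp2d9 and below them for the other 6 genes.

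In family 1, Cyp1a2 was lower in null liver. It read 11.75, 11.73 and 11.89 in wild-type and 10.92, 10.97 and 11.30 in null liver. The groups did not overlap, and the third null array was the closest to wild-type. The log2 fold change was -0.73 with an SE of 0.12 (limma adjusted p = 0.011). The call was lost without null replicate 1 (adjusted p = 0.0515) and without null replicate 2 (adjusted p = 0.0572). Cyp1a1 and Cyp1b1, the other family 1 genes and the former like Cyp1a2 a classic AhR target, lay below the filter on dim values with means of 3.59 and at most 4.08.

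Among the targets of AhR outside the P450s, 3 of 6 listed genes were bright enough to test. Nqo1, a quinone reductase, was higher (log2 fold change 0.45, adjusted p = 0.0214), as was Xdh, xanthine dehydrogenase (0.39, adjusted p = 0.0409), while Tiparp, an AhR-induced repressor of that receptor, was lower (-0.45, adjusted p = 0.0431). Neither Xdh nor Tiparp kept its call when any single array was dropped (adjusted p of 0.065 to 0.179 and of 0.0626 to 0.147). Nqo1 lost its call without either of wild-type replicates 2 (adjusted p = 0.102) and 3 (0.0588), and without either of null replicates 1 (0.085) and 3 (0.0641). With the replicate block, that is with the replicate number as a term, the adjusted p of Tiparp was 0.0563.

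The Cyp2c genes, which oxidise arachidonic acid, retinoids and many drugs, had fold changes below 0 in 8 of 9 tested members, with a subfamily median of -0.18. Of these, 2 passed. Cyp2c68 read 12.62, 12.61 and 12.46 in wild-type and 12.13, 12.21 and 12.02 in null liver. Cyp2c37, an arachidonic acid hydroxylase, read 10.89, 10.98 and 11.00 against 10.52, 10.41 and 10.62. Both pairs of groups were separate by more than the range within either group. Their log2 fold changes were -0.44 (SE 0.09, limma adjusted p = 0.0305) and -0.43 (SE 0.09, adjusted p = 0.0309).

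Both Cyp2c calls were lost on dropping most single arrays, while the sizes of the falls moved little. Over all settings the log2 fold change lay between -0.50 and -0.39 for Cyp2c68 and between -0.49 and -0.38 for Cyp2c37. Cyp2c68 stayed called without wild-type replicate 3 and had an adjusted p of 0.0705 to 0.136 without any other array. Cyp2c37 stayed called without null replicate 3 and had an adjusted p of 0.0708 to 0.131 without any other array. Tested among all 19623 single-gene probe sets, the limma adjusted p-values of Cyp2c68 and Cyp2c37 were 0.0628 and 0.0635. The unadjusted p-values were higher there too, 0.00178 and 0.00181 against 0.0011 and 0.00112 in the gene-level fit.

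Of the 7 Cyp2c genes that did not pass, Cyp2c38, Cyp2c23 and Cyp2c50 had null arrays all below the wild-type arrays, with log2 fold changes of -0.34, -0.30 and -0.16 (adjusted p = 0.0528, 0.0876 and 0.428). Under other settings Cyp2c38 was called in 4 and Cyp2c23 in 3, which include replicate 3 as a term, a filter at a mean of 6 and a variance model with trend. Cyp2c23 encodes an arachidonic acid epoxygenase and is read by a set ending in _s_at, which can also detect related genes. For Cyp2c39, Cyp2c54 and Cyp2c55 the values were -0.14, -0.03 and 0.23. Cyp2c29, a CAR-responsive gene, had null arrays of 12.32, 11.85 and 11.83 around wild-type arrays of 12.21, 12.20 and 12.13. The first null array was thus the highest of all 6 and the remaining null arrays the lowest, and the 95% interval of its log2 fold change ran from -0.49 to 0.13.

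The Cyp2b genes are the classic CAR targets, and Cyp2b9 and Cyp2b13 are known as female-predominant in mouse liver. Their upstream DNA is shown because it is almost the same (chr7:26061245-26061494 for Cyp2b13 and chr7:26173159-26173408 for Cyp2b9, both plus strand, RefSeq GRCm38.p6). Capitals mark the nuclear receptor half-site AGGTCA.
Cyp2b13: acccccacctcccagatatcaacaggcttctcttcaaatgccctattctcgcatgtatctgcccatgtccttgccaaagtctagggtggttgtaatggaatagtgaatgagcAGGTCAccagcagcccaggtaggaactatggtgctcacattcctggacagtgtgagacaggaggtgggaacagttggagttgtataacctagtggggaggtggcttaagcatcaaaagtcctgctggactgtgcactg
Cyp2b9: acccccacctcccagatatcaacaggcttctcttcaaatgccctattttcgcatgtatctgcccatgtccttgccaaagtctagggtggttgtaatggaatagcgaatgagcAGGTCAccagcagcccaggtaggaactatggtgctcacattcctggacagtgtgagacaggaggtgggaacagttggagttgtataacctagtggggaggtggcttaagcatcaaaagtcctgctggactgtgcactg
They share 248 of 250 bases (99.2%), while Cyp2b10 shares 71.0% of aligned columns with each.

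No Cyp2b gene passed the test. Cyp2b13 read 9.47, 9.50 and 9.80 in wild-type and 8.81, 9.05 and 9.26 in null liver, so its null arrays all lay lower. Its log2 fold change was -0.55 (SE 0.14) and its limma adjusted p was 0.0678. With the replicate block the adjusted p of Cyp2b13 was 0.0121, a call, and without null replicate 3 it was 0.0478. Cyp2b9 read 10.41, 10.36 and 10.34 against 10.21, 10.16 and 10.00, also without overlap, with a log2 fold change of -0.25 (adjusted p = 0.189). Cyp2b10 had values of 0.06, 0.09 and 0.03 on its 3 probe sets, none of them called. The groups overlapped on both other sets, while on 1425645_s_at (0.09) the 3 null arrays all lay higher. Of these sets 2 end in _s_at.

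The Cyp2j subfamily, whose enzymes form epoxides of arachidonic acid, gave 1 call. Cyp2j9 read 6.09, 6.07 and 6.24 in wild-type and 5.59, 5.67 and 5.69 in null liver, with no overlap. Its log2 fold change was -0.48 (SE 0.09, limma adjusted p = 0.0169). Its call was lost on dropping replicate 1 of wild-type (adjusted p = 0.053) or null (0.0698), and replicate 2 of wild-type (0.0562) or null (0.0663).

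Cyp2j5, which lies beside Cyp2j9 in the cluster on chromosome 4, pointed the same way on both of its probe sets. On 1417531_at it read 10.84, 10.79 and 10.79 in wild-type and 10.52, 10.52 and 10.39 in null liver, a log2 fold change of -0.33 (adjusted p = 0.064). With the replicate block its adjusted p was 0.0489, a call. The second set, 1417532_at, gave -0.38 with overlapping groups (adjusted p = 0.314 among probe sets). Cyp2j6, the neighbour of Cyp2j9 on the other side, had values of 0.03 and 0.12 on its sets, and Cyp2j11 had 0.16 with all null arrays higher, none of them called.

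In family 3, Cyp3a44, a female-predominant gene, was lower in null liver and its neighbour Cyp3a11, the main CYP3A gene induced through PXR, did not pass. Their upstream DNA (Cyp3a44, chr5:145805875-145806124, and Cyp3a11, chr5:145879855-145880104, both minus strand, RefSeq GRCm38.p6) is shown for this contrast, with capitals at matches to AGGTCA and, in Cyp3a11, to the HNF4 motif CAAAGTCCA.
Cyp3a44: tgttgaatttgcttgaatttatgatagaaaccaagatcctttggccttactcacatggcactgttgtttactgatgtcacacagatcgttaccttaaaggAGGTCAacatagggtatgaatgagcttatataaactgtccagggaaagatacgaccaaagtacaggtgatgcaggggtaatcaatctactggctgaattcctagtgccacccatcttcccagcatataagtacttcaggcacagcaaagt
Cyp3a11: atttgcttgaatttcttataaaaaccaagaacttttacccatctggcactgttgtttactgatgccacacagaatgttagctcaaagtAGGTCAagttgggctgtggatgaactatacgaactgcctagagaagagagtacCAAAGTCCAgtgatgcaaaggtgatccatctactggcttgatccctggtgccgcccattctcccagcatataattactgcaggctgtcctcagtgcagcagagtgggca
The pair shares 192 of 265 aligned columns (72.5%). The match to CAAAGTCCA in Cyp3a11, at bases -109 to -101 from the gene start, was not found in the Cyp3a44 window. Whether the change of Cyp3a44 differs from that of Cyp3a11 was not tested.

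Cyp3a44 read 5.06, 5.04 and 4.99 in wild-type and 4.61, 4.29 and 4.50 in null liver. These are low values, near the filter at a mean of 4.21. Whether this probe set also reads transcripts of close relatives, such as the other neighbour Cyp3a41a, was not tested. The groups did not overlap, and the log2 fold change was -0.56 (SE 0.10, limma adjusted p = 0.0173). The call was lost without wild-type replicate 1 (adjusted p = 0.0676), wild-type replicate 2 (0.0777) or null replicate 2 (0.0595).

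Cyp3a11 read 13.56, 13.56 and 13.47 in wild-type and 13.62, 13.40 and 13.36 in null liver. The groups overlapped, and the 95% interval of the log2 fold change was -0.29 to 0.15. Cyp3a25 had null arrays all lower, at -0.20, and Cyp3a13 had null arrays all higher, at 0.25, and neither passed (adjusted p = 0.314 and 0.171). Cyp3a16 lay below the filter with a mean of 2.34.

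A further Cyp3a signal lay outside the members because the annotation gives its probe set, 1419704_at, 2 Cyp3a symbols. It read 11.53, 11.74 and 11.91 in wild-type and 8.62, 8.50 and 8.37 in null liver. The drop was 9.36-fold, a log2 fold change of -3.23 with an SE of 0.12 (limma adjusted p = 2.39e-05 among 20203 probe sets with any symbol), and the call held without each array in turn. It was examined after its values were seen. No member of the Cyp3a subfamily shows a change of that size, and which gene's transcript the probes read cannot be told from the files used here. The other probe set with several symbols of these families, an _s_at set for 2 Cyp2a genes, read 13.02, 13.00 and 12.95 against 13.18, 13.22 and 13.14 and did not pass (log2 fold change 0.19, adjusted p = 0.345).

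**Figure D3:**
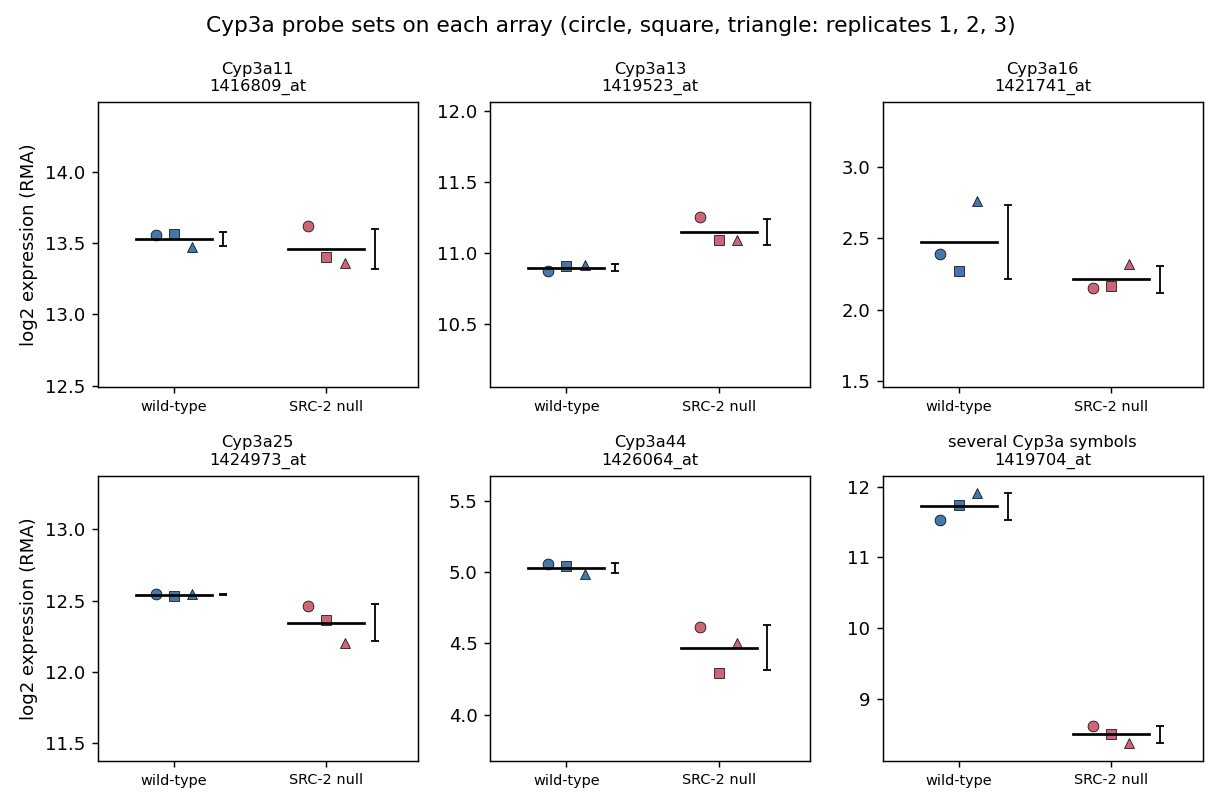
Log2 expression on each array for the 5 Cyp3a members and for the probe set with several Cyp3a symbols, each panel on its own range, with group means (lines) and 1 SD (bars). The groups are separate for Cyp3a13, Cyp3a25, Cyp3a44 and 1419704_at, which drops from a mean of 11.72 to 8.50, and they overlap for Cyp3a11 and Cyp3a16.

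The remaining tested genes each stand alone in their subfamily, and none passed. Cyp2e1, the ethanol-oxidising P450 of the central vein zone, had a log2 fold change of 0.10 (95% interval -0.15 to 0.35). Cyp2f2, a P450 of the portal zone, had -0.02 (-0.19 to 0.15). Cyp2a12, a steroid hydroxylase, had -0.01 (-0.18 to 0.17). Cyp2r1, a vitamin D hydroxylase, and Cyp2u1, a fatty acid hydroxylase, had -0.18 and 0.05. Cyp2s1, a P450 of epithelia, had -0.08.

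Besides Cyp1a1, Cyp1b1 and Cyp3a16, the genes below the filter were Cyp2b19, Cyp2c65, Cyp2d12, Cyp2d34 and Cyp2j13. The 8 untested genes had means between 2.34 and 4.08 on their brightest set. No fold is given for them.

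Cross-detection could be judged only from probe set endings and symbols, since no probe sequences were used here. The ending _at does not show that a set reads 1 gene, as 1419704_at carries 2 symbols. Of the 51 probe sets, 43 end in _at, 4 in _a_at, 4 in _s_at and none (0) in _x_at. The _s_at sets belong to Cyp2b10 (2 of its 3), Cyp2c23 and Cyp2c65, and none of the 7 called genes was read by one. With the _s_at and _x_at sets left out, the same 7 genes were called. The sets of the called genes all stayed in, so this says nothing on cross-detection. Of the 5 genes with several sets above the filter (Cyp2b10, Cyp2d13, Cyp2d22, Cyp2j5 and Cyp2j6), all sets of each gene pointed the same way and none was called. Tested probe set by probe set, 0.617% of all 19623 sets were higher and 1.79% lower. Of the 40 member sets above the filter, 1 was higher and 4 were lower, and with the replicate block 7 were lower. Dropping null replicate 3 left 2 lower, and dropping any other single array left 1.

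By known regulation, the list of female-biased P450 genes had 4 of 10 members tested. Of these, 1 was lower, Cyp3a44, and 3 did not pass (Cyp2b13, Cyp2b9 and Cyp2b10), with a median log2 fold change of -0.40. Cyp3a16 lay below the filter. Cyp2a4, Cyp2c40, Cyp2c69, Cyp3a41a and Cyp3a41b had no probe set with exactly 1 symbol, so the list does not cover them. The sets with 2 Cyp3a symbols (log2 fold change -3.23) and 2 Cyp2a symbols (0.19) were not counted in it. Among 8 CAR- and PXR-responsive P450 genes, all tested, Cyp2c37 was lower and 7 did not pass, with a median of -0.05. In these lists the counts rest on the values given above.

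Motif matches were counted in the upstream windows. Of the 34 tested genes, 28 had a RefSeq window, and both strands of the 250 bases were searched. A P450 gene counted as a match if any of its windows matched, while the share over all windows counts each window singly. A gene with several windows thus had more chances, and the shares set side by side below are in unlike units. The nuclear receptor half-site AGGTCA was in 9 of the 28 (32.1%), against 14.0% of all 32851 windows. Only 1 of the 6 called genes with a window, Cyp3a44, held it. The HNF4 motif CAAAGTCCA was in Cyp2c68 and Cyp3a11 (7.14% against 0.384%), the core GCGTG of the AhR response element in Cyp2b10, Cyp2c68 and Cyp2j9 (10.7% against 28.2%), and the STAT motif TTCNNNGAA in Cyp2j11 (3.57% against 7.02%). A match is a description of letters, and the windows of close relatives are not independent.

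Regulators of the P450s were mostly not called. Of 15 tested, Nr0b2, the corepressor SHP, fell 1.93-fold (8.02, 8.03 and 8.24 against 7.16, 7.02 and 7.26, limma adjusted p = 0.00127). Esr1, estrogen receptor alpha, was 1.34-fold higher (adjusted p = 0.0423), and did not pass when any single array was dropped (adjusted p of 0.0615 to 0.148). The other 13 did not pass, with Nr1i2, which encodes PXR, at -0.29 (adjusted p = 0.0802), Ahr at -0.27 and Nr1i3, which encodes CAR, at -0.11, both named after their values were seen. The list median was -0.04.

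Of 12 tested genes for redox partners and heme synthesis, 1 was higher and 1 lower. Alas1, the rate-limiting enzyme of heme synthesis in liver, rose 1.61-fold, reading 11.89, 11.96 and 11.88 in wild-type and 12.55, 12.63 and 12.61 in null liver (adjusted p = 0.00177). Cyb5b, the mitochondrial cytochrome b5, fell 1.40-fold (adjusted p = 0.00932). Uros, another enzyme of heme synthesis, was at 0.37 and did not pass (adjusted p = 0.108).

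Of 7 growth hormone and sex-pattern regulators 0 passed in limma. At an unadjusted p under 0.05 there were 3. These were Socs2, a feedback inhibitor of cytokine signalling, at -0.34 (adjusted p = 0.135), the repressor gene Bcl6 at -0.37 (adjusted p = 0.207) and the transcription factor gene Stat5b at -0.27 (adjusted p = 0.278).

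Genes of the liver zones outside the P450s were counted too, and the difference between zones was not tested. Of 10 pericentral genes 4 were lower and none higher, with a median of -0.50. Rhbg, an ammonium transporter, fell 2.06-fold, Lect2, a secreted protein, 1.70-fold, Gulo, the last enzyme of vitamin C synthesis, 1.63-fold, and Glul, glutamine synthetase, 1.40-fold. Glul lost its call without wild-type replicate 2 (adjusted p = 0.062). Of 8 tested periportal genes 3 were higher and none lower, with a median of 0.27. Hal, histidine ammonia-lyase, rose 1.55-fold, Aldh1b1, an aldehyde dehydrogenase, 1.40-fold, and Arg1, arginase, 1.30-fold.

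Of these periportal calls, Hal stayed called without each array. Arg1 did not pass when any single array was dropped (adjusted p of 0.0637 to 0.132), and Aldh1b1 lost its call on dropping replicate 1 or 2 of either genotype (adjusted p of 0.066 to 0.0947).

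**Figure D4:**
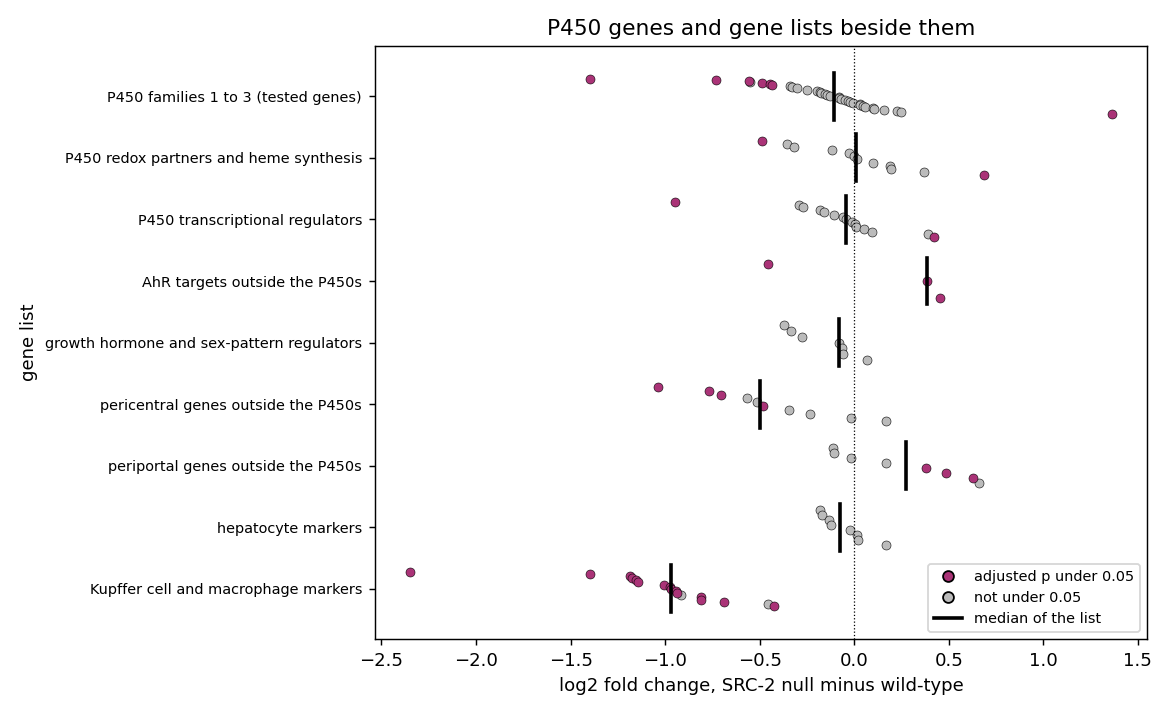
Log2 fold change (SRC-2 null minus wild-type) of each tested gene of the P450 families and of 8 lists beside them. Coloured points had an adjusted p under 0.05 and vertical lines are list medians, which stand at -0.10 for the P450s, -0.50 for pericentral, 0.27 for periportal, -0.07 for hepatocyte and -0.97 for Kupffer cell and macrophage genes.

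Markers of another liver cell type moved beside these changes. Of 17 Kupffer cell and macrophage markers 15 were lower, with a median of -0.97, and their summed linear level was 6259 to 6532 on wild-type and 2993 to 3181 on null arrays. Of these 15 calls, 13 held without each array, the exceptions being Cd163 (adjusted p of 0.0562 to 0.117 without an array) and Folr2 (adjusted p = 0.066, 0.0763 and 0.0761 without wild-type replicates 1 and 2 and null replicate 1). The part of this shift in the P450 values was not tested. Of 8 hepatocyte markers tested 0 passed in limma, also at an unadjusted p under 0.05 (0). The smallest p belonged to Cps1 (0.17), Tat (-0.18) and Hp (-0.13), log2 fold changes. Their summed level was 103912 to 105785 on wild-type and 101685 to 102853 on null arrays. No marker value is 0 on this scale.

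The other marker lists gave 1 call each. Of 10 endothelial markers, Flt1 was higher (log2 fold change 0.44), which did not pass when any single array was dropped (adjusted p of 0.0567 to 0.171). Of 10 stellate cell and matrix markers, Rgs5 was higher (0.65, adjusted p = 0.00891). Of 3 tested cholangiocyte markers, Krt19 was lower (-0.48, adjusted p = 0.013), a call lost without wild-type replicate 2 (adjusted p = 0.0762) or null replicate 1 (0.0545). Epcam (0.26) and Sox9 (0.18) lay the other way and did not pass, and the median of these 3 was 0.18. Of 8 kidney and intestine markers 6 lay below the filter, and Fabp2, an intestinal fatty acid-binding protein that liver arrays also read, was higher (0.41, adjusted p = 0.034), a call lost without any array but null replicate 1 (adjusted p of 0.0775 to 0.135).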

How the data were processed

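The authors deposited 1 table of log2 values, 1 column per array, made with RMA per the submitters' processing notes. The RMA version is not given in the sources used here. RMA tends to compress the folds of dim probe sets. Groups came from the labels.

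Gene names came from the platform annotation: 34945 probe sets had 1 symbol, 932 several, 9160 none listed, and 64 were controls, which were left out. A gene (18193 in all) was read from its probe set of highest mean, and the 11894 with a mean of at least 4.21, the median of all probe sets, were tested with limma 3.58.1 in R 4.3.3 (lmFit and eBayes, two-sided, genotype as the only term, Benjamini-Hochberg). A second fit took all 19623 single-gene probe sets above that value. The fit was checked on simulated data. Array values were given for each called P450 gene, and for the gene with the largest fold in a subfamily of at least 2 tested genes without a call, and of each list the called genes and up to 3 with the smallest p were named. Array values of Cyp2d10, Cyp2c29, Cyp2b9, Cyp2j5 and Cyp3a11 were added after they were seen. The members, lists and tests were chosen with earlier results of these data known.

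Same-numbered arrays deviated together (correlations 0.18, 0.203 and 0.516), so the numbers may pair them. For replicates 1 and 2 the other pairings were as high (0.206 and 0.166). The deviations within a group cancel out, so the values among replicates 1 and 2 follow in sum from that of replicate 3. They are no separate sign of pairing. All 42 member symbols matched RefSeq's gene table. Upstream windows were aligned with Biopython 1.88, and figures drawn with matplotlib 3.10.9. Settings tried were the block, replicate 3 as a term, array scaling, the filter, the variance model, the probe set choice and single arrays left out.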

Additional observations from a re-analysis of the deposited data

How the results depend on the processing

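No P450 gene called under any setting changed direction. The groups of these genes did not overlap, so dropping arrays, adding a replicate term or changing the filter could not have reversed one. Cyp2d9 was called under all settings, and Cyp2g1 under all but the filter at a mean of 6, which leaves it out. That filter also removes Cyp2j9 and Cyp3a44 and adds calls of Cyp2b13, Cyp2c23, Cyp2c38 and Cyp2j5, so that 4 of the 7 calls were shared. Replicate 3 of both genotypes as a term gave 10 P450 genes lower, 9 probe sets lower and 982 genes in all, the variance model with trend and robust fitting 10 genes lower, 2 higher (Cyp3a13 is the second) and 9 probe sets lower, and replicates 1 and 2 alone 2 genes lower, 2 probe sets lower and 329 genes in all. Without a filter 2 probe sets were lower, and the number of genes lower stayed at 6. With the replicate block 8 P450 genes and 7 probe sets were lower and 832 genes in all were called, and the block changed no other P450 call than those given for Cyp2b13 and Cyp2j5. Leaving out 1 array gave 1 to 6 genes lower, 1 to 2 probe sets lower and 275 to 438 genes in all. Where not stated, the cause of a difference was not tested. Counting probe sets with several symbols, a setting chosen after seeing the data, gave 5 lower. Signal over background was not analysed here.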
